A study of Mus musculus with 30 samples.

Results

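Resident tissue macrophages clear aged red cells and recover their iron, and 10 genes of that programme were followed through 5 mouse tissues: Hmox1, Slc40a1, Spic, Vcam1, Cd163, Cd5l, Marco, C1qa, Adgre1 and Timd4. The members were taken by gene identifier, and each matched 1 of the 48709 genes in the count tables. Total RNA had been sequenced from spleen, liver, kidney, muscle and brain. The mice were adult C57BL/6 animals, either wild type (WT) or heterozygous for Ctcf (Ctcf+/-, labelled haploinsufficient). Each tissue had 3 WT and 3 heterozygous libraries, 30 in all, from 3 mice of each genotype. Ctcf encodes an insulator protein that shapes chromatin loops, and the study's title concerns intron retention in its haploinsufficiency. No label restricts the heterozygosity to a cell type. The sex of the mice, their exact age and the structure of the Ctcf allele are not given in the sources used here. The labels do not say which libraries came from the same mouse, and p-values measure the spread between these libraries.

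Library totals ranged from 49.8 M to 131.6 M counted fragments. Levels are counts per 1 M library counts (CPM) scaled by TMM, a method that sets libraries to a common reference from genes of moderate change, and are written as mean ± SD (n = 3) or as the values of replicates 1, 2 and 3. Genes known for each tissue, chosen after their values were seen, matched the labels. Alb (albumin) was at least 173411 CPM in the 6 liver libraries and at most 172 CPM in the 24 others, and Cd79a, a B cell receptor subunit, was at least 582 CPM in spleen and at most 5.13 CPM elsewhere. Snap25 in brain, Umod in kidney and Acta1 in muscle separated their tissues in the same way. Ctcf itself was lower in all heterozygous than in all WT libraries of each tissue, for example 93.5, 73.4 and 107 CPM against 123, 160 and 137 CPM in spleen, with a log2 difference of -0.62 (SE 0.19). With 3 against 3 libraries the edgeR adjusted p for Ctcf was under 0.05 in brain alone (0.0259), a call lost with any 1 library left out (adjusted p up to 0.292) and in the fit of all 30 libraries (1.0). With replicate numbers blocked, kidney passed (0.0440), where equal numbers deviated together. Kidney also passed with the looser filter of at least 1 count (0.0119) and without heterozygous replicate 3 (0.0364), and spleen passed in the fit of all 30 libraries (0.0219). DESeq2 called Ctcf in kidney and muscle as well (adjusted p 9.8e-07 and 0.00724). The effect of the heterozygous genotype shared by tissues was -0.63 (SE 0.06, edgeR adjusted p 4.0e-07). That fit treated all 30 libraries as independent, although libraries of 1 mouse may recur across tissues, so its SE and p may be too small.

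As background, splenic red pulp macrophages and Kupffer cells of the liver engulf red cells, and HMOX1 splits the heme ring to release iron. Ferroportin, the product of Slc40a1, is the cell's iron exporter. The transcription factor SPI-C is required for red pulp macrophages and is held down by BACH1 until heme releases it. VCAM1 is an adhesion molecule of red pulp macrophages and of activated endothelium, and CD163 takes up complexes of haptoglobin and hemoglobin. CD5L is a secreted protein of tissue macrophages, MARCO a scavenger receptor, and TIMD4 a receptor for phosphatidylserine on dying cells. C1QA is a chain of complement C1q, and ADGRE1 is the F4/80 antigen by which mouse macrophages are stained. In brain, microglia are the resident macrophages and the main source of C1q.

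Promoter sequence was matched for 5 of the 10 members in RefSeq (GRCm38.p6), and the 4 with a match to a searched motif are shown because macrophage identity genes are known targets of MAF and ETS factors. Each is the 250 bases before the RefSeq start site, 5′ to 3′ on the gene's strand, with capitals marking TGCTGA, a MAF recognition sequence, or GAGGAA, the ETS core of PU.1 and SPI-C sites, on either strand. On the opposite strand these read TCAGCA and TTCCTC. The windows lie at chr3:87357631-87357880 (+ strand) for Cd5l, chr11:46810549-46810798 (+ strand) for Timd4, chr10:88683024-88683273 (- strand) for Spic and chr1:120505025-120505274 (- strand) for Marco. The Spic window starts from a RefSeq site 1992 bases inside the gene start of the count tables, and the others are within 1 base of it.
Cd5l: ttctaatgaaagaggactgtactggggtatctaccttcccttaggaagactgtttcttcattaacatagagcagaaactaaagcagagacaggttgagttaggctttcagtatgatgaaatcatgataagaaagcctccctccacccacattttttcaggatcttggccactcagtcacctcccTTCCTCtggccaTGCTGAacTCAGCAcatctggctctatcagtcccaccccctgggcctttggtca
Timd4: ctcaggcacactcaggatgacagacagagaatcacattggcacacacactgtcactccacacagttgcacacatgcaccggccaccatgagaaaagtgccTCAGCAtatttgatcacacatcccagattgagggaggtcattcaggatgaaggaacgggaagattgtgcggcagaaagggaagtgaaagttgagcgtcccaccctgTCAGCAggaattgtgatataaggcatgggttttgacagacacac
Spic: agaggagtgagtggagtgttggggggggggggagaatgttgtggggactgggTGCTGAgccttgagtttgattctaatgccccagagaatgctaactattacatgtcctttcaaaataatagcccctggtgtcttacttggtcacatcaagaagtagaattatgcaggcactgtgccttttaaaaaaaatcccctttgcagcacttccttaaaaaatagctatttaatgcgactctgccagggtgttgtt
Marco: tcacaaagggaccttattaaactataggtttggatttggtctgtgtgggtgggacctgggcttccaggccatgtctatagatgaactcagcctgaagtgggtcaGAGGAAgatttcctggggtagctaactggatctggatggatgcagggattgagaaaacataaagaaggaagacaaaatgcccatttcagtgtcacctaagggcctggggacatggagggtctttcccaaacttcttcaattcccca
Cd5l held TGCTGA on the forward strand 54 to 49 bases before the start and on the reverse strand 46 to 41 bases before it, facing each other across 2 bases, with a GAGGAA on the reverse strand 66 to 61 bases before the start. Timd4 held TGCTGA on the reverse strand 150 to 145 and 44 to 39 bases before its start, Spic had 1 match 198 to 193 bases before, and Marco had 1 GAGGAA 146 to 141 bases before. Of 32851 promoter windows of this length, 16.1% held at least 1 TGCTGA, 1.66% held at least 2, and 23.3% held GAGGAA. The facing pair TGCTGANNTCAGCA, which contains 2 TGCTGA matches and was searched after the sequences were seen, was in 2 of those windows, of which Cd5l was 1. The antioxidant response element core TGACNNNGC and the E-box CACGTG had no match in the 5 windows, against 10.2% and 6.02% of all windows, which says only that these letters are not in these bases. Cd163, the fifth gene, had no match to any of the 4 motifs. A match is a description of sequence and not a measured binding site.

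The iron recycling genes had their highest WT levels in spleen or liver. All 10 members differed between the 5 WT tissues (edgeR, adjusted p at most 2.0e-07), as did 98.0% of the 22933 genes tested, so that count is the background. Hmox1 was 317, 321 and 240 CPM in WT spleen and 33.5, 69.0 and 35.6 CPM in liver, and every spleen library was above every liver library. Its mean then fell through kidney (16.9 ± 6.90 CPM), muscle (7.43 ± 0.600 CPM) and brain (4.11 ± 0.858 CPM), each step passing the test. Muscle over brain turned to -0.31 under total counts (adjusted p 0.315) and lost its call without WT replicate number 1 (adjusted p 0.0840). Liver over kidney was 0.41 under total counts (adjusted p 0.185). The spleen level was 6.36 times the liver level (log2 difference 2.66, SE 0.31, adjusted p 2.3e-06). Spic followed the same order: 57.1, 42.9 and 42.5 CPM in WT spleen against 3.46, 6.76 and 3.53 CPM in liver, a log2 difference of 3.38 (SE 0.32, adjusted p 2.3e-07). In kidney and muscle Spic was at 0.123 ± 0.0390 and 0.0796 ± 0.0384 CPM, 2 levels that did not differ beyond their spread, and 2 of 3 WT brain libraries had no Spic fragment. The step from muscle to brain passed, but not without WT replicate number 1 (2.25, adjusted p 0.111) or under total counts (2.05, adjusted p 0.0649), where kidney was above muscle (1.62, adjusted p 0.0101). Zero counts in brain allow up to 0.0345 CPM in the shallower of those 2 libraries, which covers counting error only, since the fragments carry no molecular identifiers.

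Slc40a1 stood apart from Hmox1 and Spic in being abundant beyond the spleen. It was 313, 331 and 250 CPM in WT liver, 163, 194 and 208 CPM in spleen, 80.7 ± 9.19 CPM in kidney, 34.0 ± 7.57 CPM in muscle and 6.08 ± 1.08 CPM in brain, and all 4 steps passed the test. Liver was 0.66 above spleen on the log2 scale (SE 0.19, adjusted p 0.00619), but the order turned when libraries were scaled by total counts (-0.53, adjusted p 0.0267) and lost its call without WT replicate number 1 (0.52, adjusted p 0.112). Scaling by total counts moved log2 differences of liver over spleen by a median of -1.17 over the 155 listed genes. An order with liver above spleen by less than that can therefore turn with the scaling. Per kilobase of exon, Hmox1 in WT spleen reached 167 CPM per kb and Slc40a1 20.9 CPM per kb. This gap is wider than that in CPM because the Slc40a1 exons are longer.

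Vcam1 was 117, 238 and 161 CPM in WT spleen, above every library of the other tissues. Liver (23.2 ± 7.81 CPM) and brain (23.0 ± 1.72 CPM) did not differ (adjusted p 0.937), although brain was above liver under total counts (liver over brain -1.15, adjusted p 0.000855). Levels in kidney (11.5 ± 2.03 CPM) and muscle (5.10 ± 0.735 CPM) followed in turn. From spleen to liver the log2 difference was 2.89 (SE 0.27, adjusted p 2.3e-07). Vcam1 shares 61 exonic bases with the gene model Gm43109, the only such overlap among the members.

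The secreted CD5L and the scavenger and phagocytic receptors split into genes nearly limited to liver and spleen and genes found in every tissue. Cd5l was 242, 371 and 212 CPM in WT liver and 66.3, 69.7 and 49.0 CPM in spleen, with a log2 difference of 2.16 (SE 0.33, adjusted p 3.0e-05), and was at or below 0.124 CPM in each WT library of kidney, muscle and brain. Marco was 17.5, 66.1 and 29.0 CPM in WT liver and 32.9, 31.4 and 12.9 CPM in spleen, overlapping sets that did not differ (adjusted p 0.381), and reached at most 0.278 CPM elsewhere. Timd4 was 19.1 ± 4.26 CPM in WT liver, 7.26 ± 1.46 CPM in spleen and 0.347 ± 0.0932 CPM in muscle, each step passing the test, although liver over spleen was 0.22 under total counts (adjusted p 0.424). Kidney and brain Timd4, at 0.0616 ± 0.0250 and 0.0486 ± 0.0162 CPM, did not differ beyond their spread.

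Cd163 had another distribution, in which muscle followed liver and spleen. It was 18.7, 25.5 and 13.9 CPM in WT liver and 7.27, 22.7 and 14.8 CPM in spleen, which did not differ (adjusted p 0.410), then 5.45 ± 1.12 CPM in muscle, 1.93 ± 0.337 CPM in brain and 0.427 ± 0.225 CPM in kidney. The step from spleen to muscle passed, but not without WT replicate number 2 (1.18, adjusted p 0.0506), and that from muscle to brain did not under total counts (0.33, adjusted p 0.487). C1qa was 131 ± 45.4 CPM in WT liver and 114 ± 32.2 CPM in spleen (adjusted p 0.531), 42.9 ± 4.74 CPM in brain, 26.9 ± 5.71 CPM in kidney and 9.44 ± 3.20 CPM in muscle. The brain level of C1qa was above that of kidney, with a log2 difference of 0.69 (SE 0.29, adjusted p 0.0465), a call lost without WT replicate number 1 (0.48, adjusted p 0.313) or 2 (0.77, adjusted p 0.0807) and with the looser filter (0.61, adjusted p 0.0816). Adgre1 was 53.3 ± 9.08 CPM in WT spleen and 41.7 ± 12.8 CPM in liver (adjusted p 0.165, but 0.0441 without WT replicate number 2 and 1.6e-05 under total counts, with spleen higher), then 5.95 ± 0.682 CPM in kidney and 4.95 ± 0.757 CPM in brain (adjusted p 0.345), and 1.07 ± 0.296 CPM in muscle. Across the 10 members, 28 of the 40 pairs of neighbouring tissues passed the test, and the share of all genes that did in each contrast of 2 tissues was high: 72.9% for liver and spleen, 75.5% for kidney and spleen, 75.2% for muscle and spleen, 79.8% for brain and spleen, 54.1% for kidney and liver, 64.2% for liver and muscle, 73.2% for brain and liver, 64.4% for kidney and muscle, 71.4% for brain and kidney and 72.3% for brain and muscle.

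**Figure D1:**
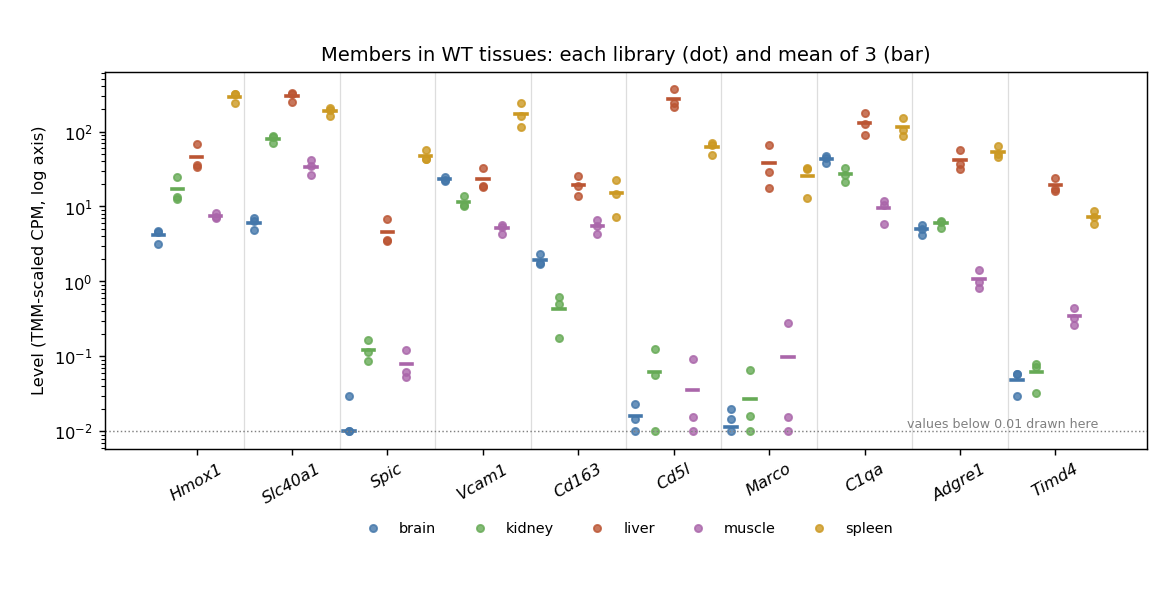
Level of each of the 10 genes in the WT libraries, on a log axis of TMM-scaled CPM, with 1 dot per library and a bar at the mean of 3; values under 0.01 are drawn at the dotted line. Spleen and liver lie highest for every gene except Vcam1, whose liver and brain levels coincide at 23.2 and 23.0 CPM.

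Some single markers of Kupffer cells and red pulp macrophages differed widely between WT liver and spleen, whereas the summed lists were less separate between tissues. Summed over WT libraries, the 9 Kupffer genes reached 486 to 668 CPM in liver and 184 to 203 CPM in kidney. The 10 red pulp and marginal zone genes summed to 436 to 452 CPM in spleen and 259 to 290 CPM in liver, and the 11 microglial genes to 251 to 284 CPM in brain and 197 to 206 CPM in kidney. Of single genes, the Kupffer cell lectin Clec4f was 258 ± 59.0 CPM in WT liver and 0.0586 CPM in WT spleen, and Vsig4, a complement receptor of Kupffer cells, was 71.9 ± 9.68 and 0.313 CPM. The red pulp integrin Itgad was 39.2 CPM in WT spleen and 0.0524 CPM in liver. P2ry12, a purine receptor of microglia, was 29.3 CPM in WT brain, where Cd5l, Marco, Spic and Timd4 were at most 0.0584 CPM in any WT library. The marginal zone lectin Cd209b was low in WT spleen, at 1.05 CPM. These single genes were picked from the lists after their values were seen.

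The genes most alike to each member were those with the highest Pearson correlation of log2 CPM over the 30 libraries, among 15938 other genes; the libraries share tissue and depth, so these values describe the tissue pattern. C1qa was most like C1qb (r = 0.993) and C1qc (0.992), the other 2 chains of C1q, and then Fcgr1 (0.957). Spic was most like Abcg3 (0.988), Themis2 (0.984) and Trim26 (0.983). Hmox1 was nearest to AI662270 (0.979), Lyn (0.976) and Ifi209 (0.976), and Slc40a1 to Trim25 (0.983), Nmi (0.982) and Irgm1 (0.981). Vcam1 was nearest to Laptm5 (0.982), Inpp5d (0.979) and Plek (0.979). Marco was nearest to Fcna (0.979), Psmb10 (0.978) and Cfp (0.972), and Cd5l to Gstp3 (0.977), Nlrp12 (0.976) and Pglyrp2 (0.974). Adgre1 was nearest to Siglece (0.981), Serpina3g (0.979) and Slc15a3 (0.978), and Timd4 to Mrc1 (0.974), Trit1 (0.972) and Ms4a8a (0.967). Cd163 had the loosest neighbours, Tapt1 (0.917), Nfyb (0.894) and Rap2c (0.889). Among the members themselves, Cd5l and Marco were closest (0.9797), followed by Hmox1 with Spic (0.960) and Marco with Timd4 (0.941), and Slc40a1 and Vcam1 were farthest apart (0.345).

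Between genotypes, no member passed an adjusted p of 0.05 in any tissue by edgeR's quasi-likelihood test. All 10 were tested in spleen and liver, 8 in kidney (not Marco or Timd4), 7 in muscle (not Spic, Cd5l or Marco) and 6 in brain (not Spic, Cd5l, Marco or Timd4), the others being too low there. The background was also sparse: spleen had 0.242% of 18615 genes called, liver 0.0193% of 15584, kidney 0.0211% of 18937, muscle 0.0249% of 16064 and brain 0.0157% of 19166. With no adjustment, a p under 0.05 was reached by 4 members in muscle, 1 in liver, 1 in kidney and 0 in spleen and brain, beside 6.45%, 4.56%, 6.44%, 3.52% and 2.96% of all genes. DESeq2 called 1 member, Cd163 in liver, and none in the other tissues. Its background in liver was wider, with 68 of 27139 genes called. In brain and kidney, where equal replicate numbers deviated together, a replicate block raised all called genes from 3 to 22 and from 4 to 21 and called no member.

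**Figure D2:**
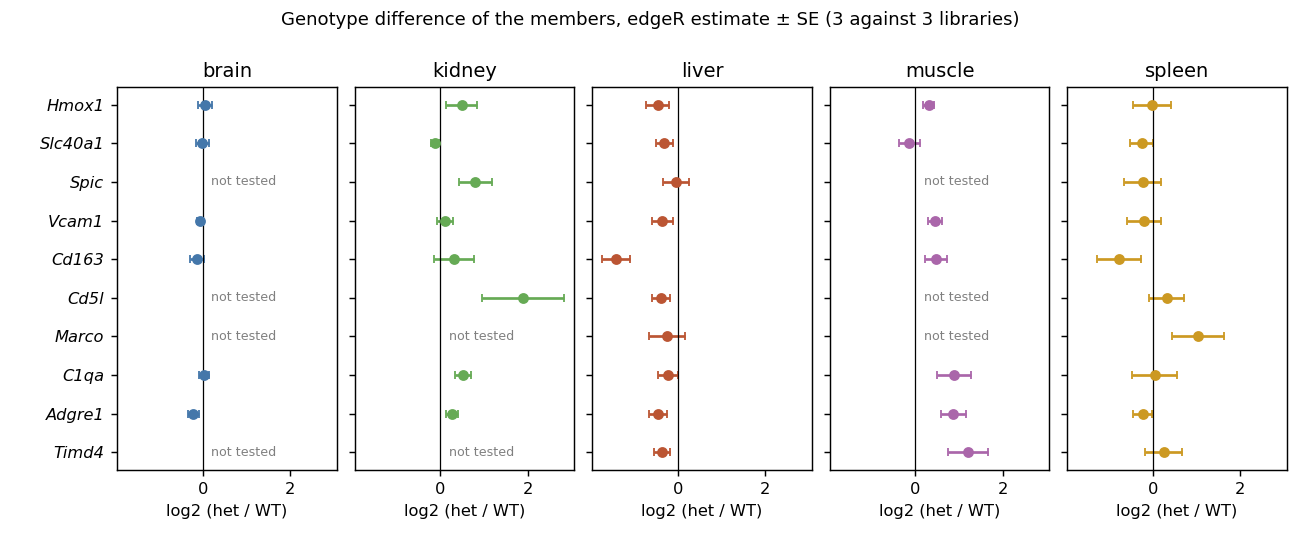
Log2 fold change of heterozygous over WT for each gene in each tissue (edgeR estimate, bars are 1 SE, 3 against 3 libraries). Every liver estimate is below 0, led by Cd163 at -1.40, and 6 of 7 muscle estimates are above 0; no estimate passed an adjusted p of 0.05.

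In liver all 10 fold changes were below 0, with a median of -0.35 against -0.01 over all genes, of which 47.6% were above 0. Cd163 stood lowest: 18.7, 25.5 and 13.9 CPM in WT and 10.3, 7.04 and 4.55 CPM in heterozygous liver. The groups did not overlap, and the heterozygous mean of 7.29 ± 2.86 CPM compares with 19.4 ± 5.83 CPM. The fold change was -1.40 (SE 0.32, adjusted p 0.514 by edgeR), and DESeq2 gave an adjusted p of 0.00462, within a range of 0.00462 to 1.0 over all alternatives. Adgre1 was 32.1, 56.3 and 36.7 CPM in WT and 31.2, 28.5 and 31.6 CPM in heterozygous liver (-0.45, SE 0.20, adjusted p 1.0), and Timd4 was 17.3, 23.9 and 16.0 against 15.9, 15.1 and 13.7 CPM (-0.35, SE 0.18, adjusted p 1.0). These 3 members had heterozygous libraries wholly below WT, as did 4.31% of all genes. Fewer macrophages and less RNA per macrophage cannot be told apart in these bulk samples.

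That direction leaned on 1 library. WT liver replicate 2 was the highest of the 6 libraries for all 10 members, for example 371 CPM of Cd5l beside 201 to 242 CPM in the other 5, and 69.0 CPM of Hmox1 beside 31.7 to 36.9 CPM. Without it 7 of 10 fold changes were below 0 and the median was -0.08, with Spic at 0.36, Marco at 0.45 and C1qa at 0.07. Cd163 remained between -1.73 and -1.16 as each library was left out in turn. Under total counts 9 of 10 were below 0, Spic turning to 0.06.

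**Figure D3:**
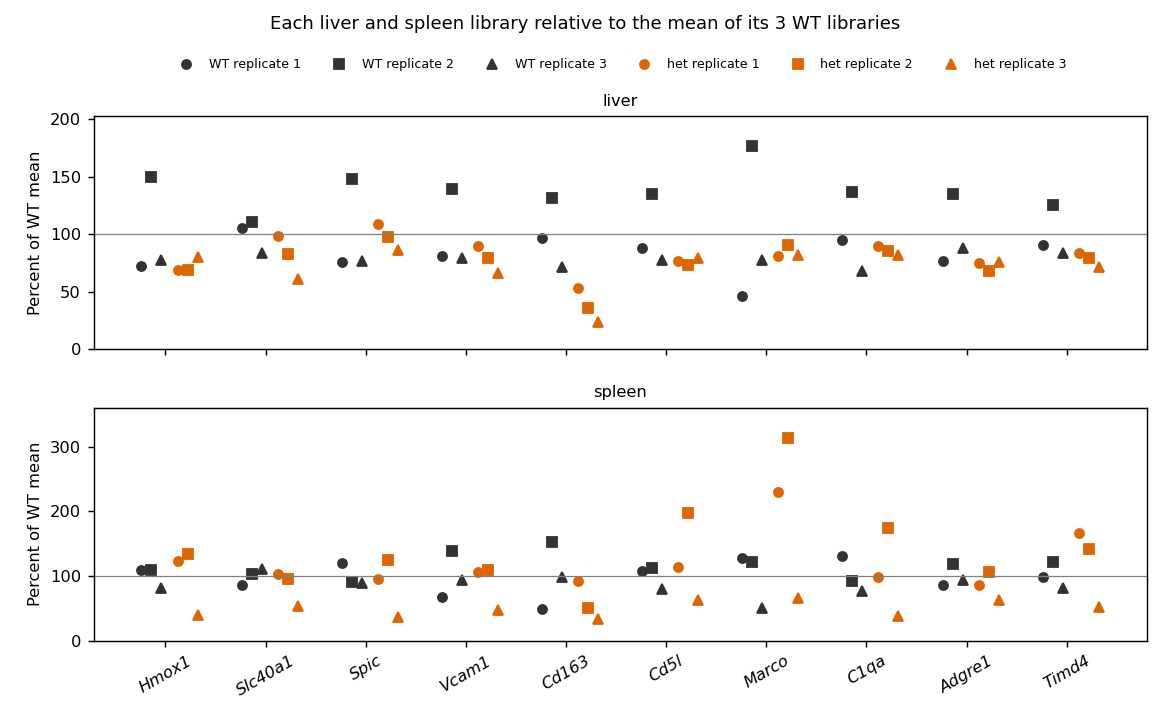
Each liver and spleen library as a percent of the mean of the 3 WT libraries of that tissue, by gene; grey line at 100, black for WT, orange for heterozygous (het), shapes for replicates. WT liver replicate 2 (black squares) is highest for all 10 genes, and heterozygous spleen replicate 3 (orange triangles) is lowest for 9 of 10.

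Several other liver lists lay mostly below 0, with no gene called in any of them. Over all liver genes, 47.6% were above 0 and 4.56% had an unadjusted p under 0.05. Of 20 genes of most tissue macrophages, 0 were above 0 and 2 had an unadjusted p under 0.05, with a median of -0.20; their summed level was 1027 to 1531 CPM in WT and 1029 to 1123 CPM in heterozygous libraries. Lyz2, the macrophage lysozyme, was 200 ± 19.5 against 148 ± 3.77 CPM (-0.44, adjusted p 0.692), and Mrc1, the mannose receptor, was 73.8 ± 3.61 against 53.3 ± 9.17 CPM (-0.47, adjusted p 0.792). The Kupffer list had 1 of 9 above 0 and 3 with an unadjusted p under 0.05. Cd207 (langerin) was 5.49 ± 0.734 against 1.73 ± 0.549 CPM (-1.67, SE 0.28, adjusted p 0.232) and Id1, a BMP target, was 23.5 ± 9.37 against 11.1 ± 3.21 CPM (-1.08, adjusted p 0.697). Clec4f, the defining Kupffer lectin, was 258 ± 59.0 against 246 ± 21.8 CPM (-0.07, SE 0.18, adjusted p 1.0). Endothelial genes had 0 of 8 above 0, 4 with an unadjusted p under 0.05 and sums of 245 to 291 against 182 to 242 CPM, among them Emcn (-0.56, adjusted p 0.982) and Pecam1 (-0.42, adjusted p 1.0). B cell and T cell genes had 0 of 7 above 0 each. WT liver replicate 2 was again the highest liver library for Lyz2 (220 CPM), Id1 (34.4 CPM) and Pecam1 (32.2 CPM), but not for Mrc1, Cd207 or Emcn. How far the direction of these lists rests on that library is not given here. The part of these lists in the members' values was not tested.

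The remaining liver lists held no called gene. Of 8 perivascular and interstitial macrophage genes, 7 were tested, of which 5 were above 0 and 2 below, with a median of 0.085. The 2 below were Cd209f at 1.47 ± 0.945 against 0.352 ± 0.150 CPM (-2.07, adjusted p 0.656) and Stab1 at 68.0 ± 6.50 against 54.6 ± 8.14 CPM (-0.32, adjusted p 1.0). The monocyte list had 3 of 8 above 0, with a median of -0.11. In it the immediate early gene Nr4a1 was 2.37 ± 0.707 against 11.6 ± 6.48 CPM (2.30, SE 0.48, adjusted p 0.465). Stromal genes had 3 of 7 above 0, with a median of -0.02. Among them the fibrillar collagens Col1a1 and Col3a1 had fold changes of 0.55 and 0.40, both with an adjusted p of 1.0. Red pulp and marginal zone genes had 4 of 9 above 0, with a median of -0.04, and Siglec1 and Treml4 were at -0.28 and -0.27.

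In kidney 7 of the 8 tested members were above 0, with a median of 0.41 against 0.00 over all genes, of which 50.1% were above 0. C1qa was 21.5, 32.9 and 26.4 CPM in WT and 32.8, 36.0 and 47.9 CPM in heterozygous kidney, sets that overlapped by a narrow margin (0.53, SE 0.18, adjusted p 0.629 by edgeR). Adgre1 was 5.18, 6.48 and 6.18 against 6.69, 6.75 and 7.97 CPM and was the 1 member with every heterozygous library above WT, as were 6.15% of all genes (0.26, SE 0.13, adjusted p 0.858). Hmox1 was 12.7, 24.9 and 13.2 CPM in WT and 18.1, 37.1 and 16.6 CPM in heterozygous kidney, with replicate 2 highest in both (0.50, adjusted p 0.970). Slc40a1, the 1 member below 0, was 85.6, 70.1 and 86.3 against 74.1, 75.5 and 73.6 CPM (-0.12, SE 0.10, adjusted p 0.9902). Spic was 0.123 ± 0.0390 against 0.216 ± 0.0613 CPM (0.81, adjusted p 0.830). The largest kidney estimate, Cd5l at 1.89 (SE 0.94, adjusted p 0.850), rested on 1 library: replicate 3 of the heterozygous kidneys had 0.549 CPM and the other 5 had at most 0.124 CPM, and without it the estimate was 0.32. Albumin in that library was 172 CPM, against 6.91 to 32.5 CPM in the other kidney libraries, and its part in the Cd5l value was not tested.

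The 20 genes of most tissue macrophages were all above 0 in kidney, and 12 had an unadjusted p under 0.05, with none called. Over all kidney genes, 50.1% were above 0 and 6.44% had an unadjusted p under 0.05. The summed level of the 20 genes was 312 to 348 CPM in WT and 385 to 398 CPM in heterozygous kidney, without overlap. Examples chosen after their values were seen are the lysosomal protease Ctss (20.7 ± 1.86 against 26.6 ± 0.855 CPM, 0.36, adjusted p 0.419), C1qc (19.9 ± 3.28 against 28.3 ± 2.55 CPM, 0.51, adjusted p 0.431) and Aif1, the IBA1 antigen (3.29 ± 0.514 against 5.26 ± 1.03 CPM, 0.68, adjusted p 0.467). Of the fibroblast and stromal genes, none called, 6 of 7 were above 0, 4 had an unadjusted p under 0.05, and the sums were 263 to 294 against 326 to 417 CPM. The part of stroma in the macrophage values was not tested.

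**Figure D4:**
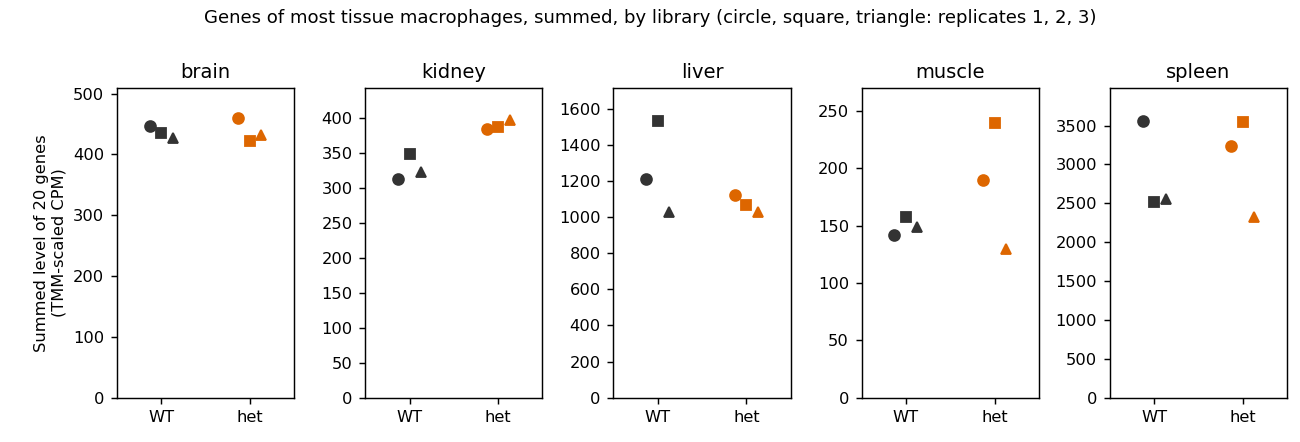
Summed level, in TMM-scaled CPM from 0, of 20 genes of most tissue macrophages in each library, by tissue and genotype (het, heterozygous; shapes are replicates; each panel has its own scale). The kidney groups do not overlap, at 312 to 348 against 385 to 398 CPM, and the groups of the other 4 tissues do.

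In muscle 6 of the 7 tested members were above 0, with a median of 0.47 against -0.01 over all genes, of which 48.4% were above 0. Of these, 4 had heterozygous libraries wholly above WT, as did 5.91% of all genes. Adgre1 was 0.988, 1.40 and 0.829 CPM in WT and 2.05, 2.30 and 1.57 CPM in heterozygous muscle (0.87, SE 0.28, adjusted p 0.551 by edgeR). Timd4 was 0.448, 0.327 and 0.265 against 0.555, 1.32 and 0.550 CPM (1.20, SE 0.45, adjusted p 0.655), with replicate 2 of the heterozygous muscles highest. Hmox1 was 7.14, 8.12 and 7.04 against 9.58, 8.95 and 9.12 CPM, which did not overlap (0.31, SE 0.12, adjusted p 0.714). Vcam1 was 5.37, 5.66 and 4.27 against 7.58, 7.08 and 6.28 CPM (0.45, SE 0.16, adjusted p 0.650). None of these 4 passed the adjusted test.

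C1qa in muscle was 10.6, 11.9 and 5.84 CPM in WT and 16.9, 26.4 and 9.20 CPM in heterozygous libraries, which overlapped (0.89, SE 0.39, adjusted p 0.776). In both genotypes replicate 2 was highest and replicate 3 lowest. With the replicate number as a block the adjusted p was 0.0436, within a range of 0.0436 to 0.952 over all alternatives. That block raised all called genes in muscle from 4 to 118 of 16064. In muscle the deviations of equal numbers correlated at r = 0.084, 0.17 and 0.26. The first lay just under the minimum of 0.1 set for pairing, so the numbers do not establish that block. Cd163 was 4.32, 6.56 and 5.47 against 10.5, 6.54 and 5.68 CPM, led by replicate 1 of the heterozygous muscles (0.47, adjusted p 0.855). Slc40a1 was 34.4, 26.2 and 41.3 against 40.5, 21.1 and 31.5 CPM (-0.13, adjusted p 0.975).

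**Figure D5:**
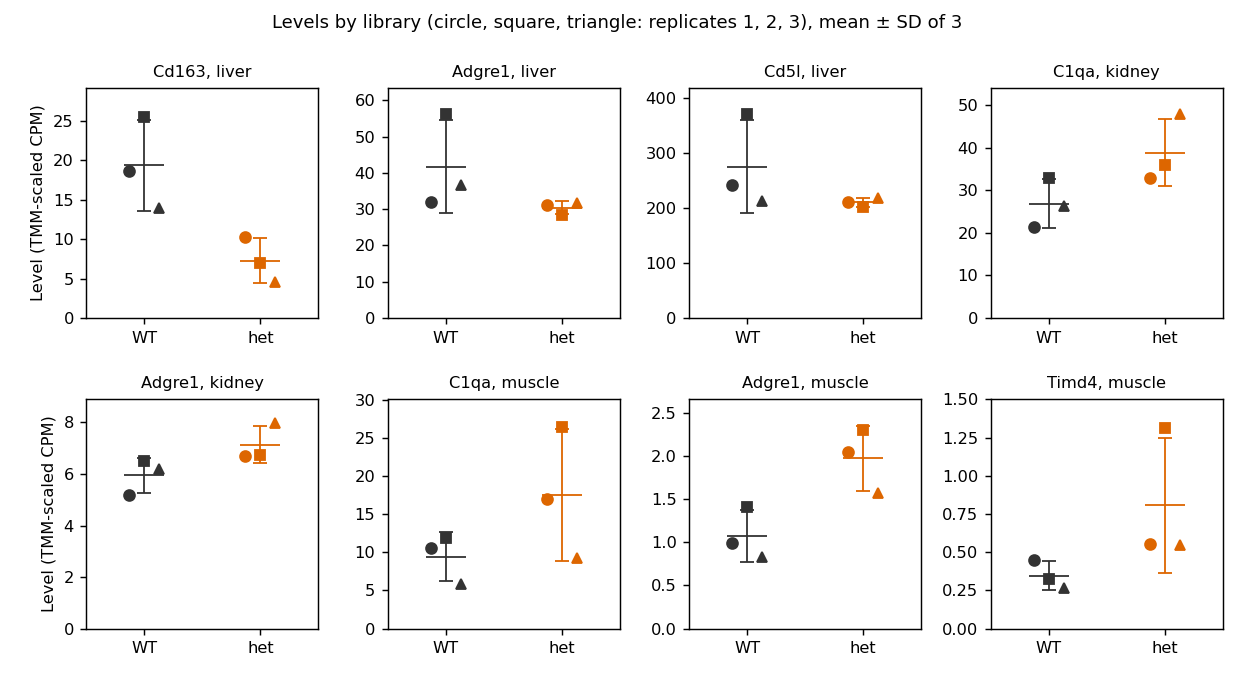
TMM-scaled CPM of 5 genes in liver, kidney or muscle, by library (circle, square and triangle for replicates 1, 2 and 3), with the mean and SD of 3; axes start at 0. Cd163 in liver and Adgre1 in muscle separate the genotypes, whereas C1qa in kidney and muscle overlaps.

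Of the 20 genes of most tissue macrophages, 18 were above 0 in muscle and 7 had an unadjusted p under 0.05, beside 48.4% and 6.45% of all genes. The sums were 142 to 158 CPM in WT and 130 to 240 CPM in heterozygous libraries, so the lowest library was heterozygous. Csf1r, the receptor on which macrophages depend, was 5.62 ± 1.07 against 9.39 ± 2.68 CPM (0.74, adjusted p 0.593), an example chosen after its values were seen. Stromal genes were above 0 in 6 of 7, with sums of 649 to 1054 against 808 to 1692 CPM, and their part in the members' values was not tested.

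In spleen, the organ with most Hmox1 and Spic, 4 members were above 0 and 6 below, with a median of -0.11 against 0.00 over all genes, of which 48.9% were above 0. The genotypes overlapped for every member, whereas they did not for 6.64% of all genes. Hmox1 was 317, 321 and 240 CPM in WT and 360, 393 and 116 CPM in heterozygous spleen (-0.01, SE 0.44, adjusted p 1.0). Spic was 57.1, 42.9 and 42.5 against 45.1, 59.2 and 17.2 CPM (-0.23, SE 0.42), and Slc40a1 was 163, 194 and 208 against 195, 178 and 101 CPM (-0.25, SE 0.27). In each, heterozygous replicate 3 was lowest while the other 2 lay within or above the WT values. That library was lowest of the 6 for 9 of 10 members, and without it 7 of 10 were above 0 and the median was 0.25.

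Marco and Cd163 had the spleen estimates farthest from 0. Marco was 32.9, 31.4 and 12.9 CPM in WT and 59.2, 80.7 and 17.1 CPM in heterozygous spleen (1.02, SE 0.59, adjusted p 1.0). Cd163 was 7.27, 22.7 and 14.8 against 13.8, 7.61 and 5.02 CPM (-0.76, SE 0.50, adjusted p 1.0). Timd4 was 7.15, 8.77 and 5.86 against 12.1, 10.2 and 3.74 CPM, with 2 heterozygous libraries above and 1 below the WT range (0.26, adjusted p 1.0). Vcam1, Adgre1, C1qa and Cd5l had estimates of -0.20, -0.23, 0.05 and 0.32, all with an adjusted p of 1.0.

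Blood cell markers also varied between spleen libraries. Over all spleen genes, 48.9% were above 0 and 3.52% had an unadjusted p under 0.05. Erythroid genes, the red cell precursors of the splenic pulp, had 0 of 10 above 0, with sums from 10724 to 66634 CPM in WT and from 15547 to 56638 CPM in heterozygous spleen. Neutrophil genes had 8 of 8 above 0, with sums of 443 to 2358 against 1612 to 3669 CPM, and their granule genes Ngp and Ltf were at 1.53 and 1.47 (both adjusted p 1.0). Of the 8 monocyte genes, 4 were above 0 and 4 below, with a median of 0.009, and 1 had an unadjusted p under 0.05. Among those above 0, Ly6c2 was 58.3 ± 10.9 against 97.5 ± 12.01 CPM (0.74, SE 0.19, adjusted p 0.562). The 20 genes of most tissue macrophages had 11 above 0 and sums of 2514 to 3555 against 2330 to 3545 CPM, and Msr1, a scavenger receptor, was 3.37 ± 0.947 against 2.25 ± 0.308 CPM (-0.58, adjusted p 1.0). Red pulp and marginal zone genes had 6 of 10 above 0, with Pparg at -0.35 and Cd80 at 0.15. B cell genes had 0 of 7 above 0, T cell genes 7 of 7 and stromal genes 6 of 6, the stromal sums being 2.20 to 3.94 against 2.81 to 8.70 CPM. Col1a1 was 0.594 ± 0.178 against 1.37 ± 0.631 CPM (1.21, SE 0.44, adjusted p 1.0). The part of these cells in the members' values was not tested.

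In brain the 6 estimates lay between -0.22 and 0.05. Of these, 2 were above 0, with a median of -0.04 against 0.00 over all genes, of which 48.2% were above 0. The genotypes overlapped for all 6, and 7.83% of all genes did not overlap. C1qa was 47.1, 43.7 and 37.8 CPM in WT and 49.96, 41.0 and 40.1 CPM in heterozygous brain (0.03, SE 0.11, adjusted p 1.0 by edgeR). Adgre1, at 4.19, 4.93 and 5.71 against 4.24, 4.30 and 4.22 CPM, had the lowest estimate (-0.22, SE 0.13), and Vcam1 was 22.2, 24.9 and 21.7 against 21.7, 22.4 and 21.8 CPM (-0.06, SE 0.07). Hmox1, Slc40a1 and Cd163 had estimates of 0.05, -0.01 and -0.14. Microglial genes were above 0 in 3 of 11, with sums of 251 to 284 against 253 to 266 CPM and none with an unadjusted p under 0.05.

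The wider iron and heme pathway was followed in 31 further genes, which cover heme breakdown, storage, uptake, hepcidin control and plasma carriers. Of these 31, 1 passed the test in any tissue, and it fell in heterozygous spleen, where 0.242% of all genes were called. Hpx, hemopexin, the plasma carrier of free heme, was 1.34 ± 0.268 CPM in WT and 0.106 ± 0.0433 CPM in heterozygous spleen (-3.66, SE 0.39, adjusted p 0.0290). The call held without heterozygous replicate 2 (adjusted p 0.0367) and was lost when any 1 of the other 5 libraries was left out, with estimates of -4.01 to -3.42 and adjusted p up to 0.240. It was also lost with the filter of 10 counts in every library (0.149) and when all 30 libraries shared 1 fit (0.0776). The level of Hpx compares with 6252 CPM in WT liver. Albumin in the same libraries was 16.7 to 21.3 CPM in WT and 0.0140 to 0.0731 CPM in heterozygous spleen, and its part in the Hpx value was not tested. The list had 12 of 29 genes above 0 in spleen (median -0.04), 12 of 31 in liver (-0.03), 15 of 30 in kidney (0.00), 20 of 28 in muscle (0.10) and 9 of 29 in brain (-0.02). Unadjusted p-values under 0.05 numbered 2 in spleen, 1 in liver, 3 in kidney, 4 in muscle and 1 in brain. In the same order, 3.52%, 4.56%, 6.44%, 6.45% and 2.96% of all genes had such a p-value. In WT mice the hormone Hamp, hepcidin, which degrades ferroportin, was 843 CPM in liver and at most 0.228 CPM on average in the other tissues. The biliverdin reductase Blvrb, downstream of HMOX1, was 243 CPM in WT spleen and 179 CPM in liver; both genes were chosen after their values were seen.

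Over all 5 tissues no member was called for a shared genotype effect by edgeR, where 47 of 24262 genes were called (0.194%). Limma called 7 genes when the tissues were averaged by genotype and replicate number. No member was called for an effect that differed between tissues (184 genes, 0.758%). The shared edgeR estimates ran from -0.32 (Cd163, SE 0.23) to 0.27 (Marco, SE 0.36), so shifts of that size are not excluded. The edgeR fits treated libraries as independent. Unadjusted, 0 members had a p under 0.05 for the shared effect and 2 for the difference, beside 5.91% and 6.66% of all genes. The 2 were Adgre1 (adjusted p 0.179), with estimates of 0.87 in muscle, 0.26 in kidney, -0.22 in brain, -0.23 in spleen and -0.45 in liver, and Cd163 (adjusted p 0.540), with 0.47, 0.32, -0.14, -0.76 and -1.40 in the same order. The test behind these adjusted p-values asked for any difference among the 5 tissues. The opposite signs of liver and muscle were not tested by themselves.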

How the data were processed

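The counts are the authors' fragments per gene, deposited as featureCounts 1.5.0-p3 gave them over exons of the Ensembl 86 annotation of GRCm38, per the file headers, with no option set for strand or for reads of several places. FastQC, STAR and DESeq2 are named in the submitters' processing notes, and their versions and the trimming are not given in the sources used here. Because strand was not used, overlapping genes cannot be told apart. The counts were analysed as deposited with R 4.3.3 and edgeR 4.0.16: filterByExpr, TMM and quasi-likelihood tests in the 6 libraries of each tissue, with Benjamini-Hochberg adjustment over all genes tested and a threshold of 0.05. Log2 fold changes are heterozygous over WT. Fits of all 30 libraries tested a shared effect and its difference between tissues, and a fit of the 15 WT libraries compared tissues. Levels use TMM within each tissue, set to a common scale by the tissue's mean TMM factor over the 30 libraries. DESeq2 1.42.0 and limma 3.58.1 served as alternatives, and the test steps were tested on simulated data.

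Samples were grouped by their titles. Replicate pairs of 1 group differed by a chi-square of 15.4 to 640 per degree of freedom, so none was merged. Replicates of equal number deviated together in brain (r = 0.21, 0.39 and 0.54) and kidney (0.21, 0.19 and 0.21), each above 0.1, which comes from the data and not from a label, and not in every pair of the other tissues.

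All 10 members are named in every tissue. Of each other list, called genes are named, or otherwise up to 2 with the smallest p in spleen and in liver, and the 3 most alike genes of each member. The members and lists were chosen with earlier results of these data known.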

Additional observations from a re-analysis of the deposited data

How the results depend on the processing

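No member was called in any tissue under 8 kinds of alternative (another tool, 2 normalizations, 2 filters, 1 fit of all libraries, the replicate block and each library left out), with 2 exceptions: DESeq2 called 1 member in liver (Cd163), and the replicate block called 1 in muscle (C1qa). The replicate block changed no other call of a member, but ended that of Hpx in spleen (adjusted p 0.280). The cause of neither was tested. Over the same alternatives all called genes ranged from 0 to 250 in spleen (45 as reported), 1 to 68 in liver (3), 2 to 182 in kidney (4), 1 to 229 in muscle (4) and 0 to 27 in brain (3). In the joint fits (2 normalizations, the looser filter, the block, replicate numbers or 1 spleen library left out), they ranged from 12 to 54 for the shared effect (47) and 35 to 222 for its difference between tissues (184). The shared effect had 15 to 36 with 1 tissue left out and 7 by limma on 1 mean per genotype and replicate number. The sign of some member estimates turned, none of them called. Under total counts Spic in liver was 0.064 and Hmox1 in spleen 0.017. With the replicate block Slc40a1 in brain was 0.0092, Spic in liver 0.029 and C1qa in spleen -0.18. With the looser filter of at least 1 count Slc40a1 in brain was 0.011, and in the fit of all 30 libraries it was 0.061 and Vcam1 in brain 0.0031. As libraries were left out in turn, brain Hmox1 ranged from -0.11 to 0.15, Slc40a1 from -0.15 to 0.11, Cd163 from -0.22 to 0.0093 and C1qa from -0.079 to 0.10. Kidney Vcam1 ranged from -0.021 to 0.27 and Cd163 from -0.056 to 0.67, and muscle Slc40a1 from -0.36 to 0.073. Liver Spic ranged from -0.20 to 0.36, Marco from -0.59 to 0.45 and C1qa from -0.43 to 0.074. Spleen Hmox1 ranged from -0.30 to 0.36, Spic from -0.61 to 0.13, Vcam1 from -0.41 to 0.10, Cd5l from -0.18 to 0.64, C1qa from -0.55 to 0.45 and Timd4 from -0.056 to 0.62. In the WT tissue order, total counts turned Hmox1 of muscle over brain to -0.31 and, of liver over spleen, Slc40a1 to -0.53, Cd163 to -0.84, Marco to -0.62 and C1qa to -0.97. In heterozygous libraries liver over spleen was -0.26 for Cd163, -0.71 for Marco and -0.054 for C1qa, and kidney over brain was -0.027 for Timd4. With 1 WT replicate number left out, Vcam1 of liver over brain ranged from -0.24 to 0.093, Cd5l of muscle over brain from -0.37 to 1.78, Marco of liver over spleen from -0.011 to 1.11 and of kidney over brain from -0.98 to 2.46, C1qa of liver over spleen from -0.16 to 0.48, and Timd4 of kidney over brain from -0.077 to 0.81. Levels under about 0.1 CPM rest on at most 13 fragments a library.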
